A study of Mus musculus with 16 samples.

Results

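The protein-coding mouse genes whose symbols begin with Kcn encode the pore-forming and auxiliary subunits of potassium channels, and the count table held 94 of them among 46320 genes. They were chosen by symbol and biotype alone and sorted by symbol into 40 voltage-gated channel genes, 13 genes for auxiliary subunits of voltage-gated channels, 15 inward rectifiers, 14 two-pore channels, 9 genes of calcium-activated channels and 3 genes for the sodium-activated channels and Slo3. After a filter on low counts 82 members were tested among 19964 genes. RNA came from motoneurons of the lumbar spinal cord of mouse embryos at embryonic day 13, enriched by panning with an antibody against p75NTR and cultured in microfluidic devices whose channels let axons, but not cell bodies, reach a separate chamber. Both genotypes received CNTF in the somatodendritic and in the axonal compartment and BDNF in the axonal compartment only. The Hnrnpr-/- animals carry a CRISPR/Cas9 deletion of the first exons of Hnrnpr, which encodes the RNA-binding protein hnRNP R, in every cell, and the +/+ animals are wildtype. Each genotype gave 4 somatodendritic and 4 axonal libraries, so there are 4 groups and 16 libraries. The study describes its libraries as biological replicates and says that compared conditions shared a batch of cells. It does not say which cultures or animals stand behind a library, nor do the labels, so p-values measure the spread between these libraries. The study asked how the loss of hnRNP R changes transcripts in each compartment.

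Potassium channels let potassium leave the cell along its gradient, which holds the resting potential and ends the action potential. Voltage-gated channels open on depolarization, inward rectifiers pass current mainly near rest, two-pore channels carry the background leak, and calcium- or sodium-activated channels follow the ion that entered during firing. In neurons many of these proteins have fixed places, such as Kv7 channels at the axon initial segment, Kv1 channels along the axon and Kv2 and Kv4 channels on soma and dendrites, whereas the place of the protein says nothing on its own about where its mRNA lies. Auxiliary subunits form no pore and change the gating, the assembly or the transport of the pore-forming subunits.

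The part of the coding sequence that sets the pore-forming members apart is the selectivity filter, a run of 5 codons for threonine or serine, then valine, isoleucine, threonine, leucine or phenylalanine, then glycine, then tyrosine, phenylalanine or leucine, and again glycine. The canonical GENCODE coding sequences of GRCm39 matched all 94 members, Kcne1l by its position under the symbol Kcne5 and the others by symbol. In them this run was present in all 77 pore-forming or modifier members and in none of the 17 auxiliary members, against 383 or 1.76% of 21770 protein-coding genes. Of the 14 two-pore genes, 13 held it more than once. The stretches below show it for a member of each pore-forming family that was lower in +/+ axons (Kcna6, Kcnk9, Kcnma1, Kcnt1, Kcnj9) and for Kcnk5 and Kcnj10, which were higher there, each as 30 coding bases from 5′ to 3′ with the 5 filter codons in capitals; for Kcnk9 and Kcnk5 the later of the 2 filters is given.
Kcna6: acaatgaccACGGTAGGTTATGGGgacatg
Kcnk9: acattgactACTATAGGGTTCGGCgatttt
Kcnma1: acaatgtctACAGTGGGTTATGGGgacgtt
Kcnt1: actttctcaACTGTGGGCTTCGGTgatgtg
Kcnj9: acggagaccACCATCGGCTATGGGcaccgg
Kcnk5: accatctccACCATTGGCTTTGGGgacttt
Kcnj10: tcccagaccACCATCGGCTATGGCttccgc
Their positions in GRCm39 are chr6:126715604-126715633 (Kcna6, minus strand), chr15:72384562-72384591 (Kcnk9, minus), chr14:23578475-23578504 (Kcnma1, minus), chr2:25784370-25784399 (Kcnt1, plus), chr1:172153745-172153774 (Kcnj9, minus), chr14:20194710-20194739 (Kcnk5, minus) and chr1:172196860-172196889 (Kcnj10, plus), each inside a coding exon. The bases vary more than the residues they encode: without Kcnn2 and Kcng2, the remaining 88 filters had 77 different 15-base sequences. Of these 88, 59 encoded Gly-Tyr-Gly, 26 Gly-Phe-Gly and 3 Gly-Leu-Gly. The filter separates the directions reported below only in part, since 41 of the 45 members lower in +/+ axons had it and 4 did not, whereas 3 of the 7 members higher there had it and 4 did not.

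Total counts per library ranged from 22024923 to 34864151, and Kcn genes took 0.2103% to 0.292% of the somatodendritic and 0.0814% to 0.138% of the axonal counts. Levels are given as CPM, the count relative to a library size scaled by TMM factors. Levels of different genes are compared only as CPM per kb of exon. Hnrnpr was at 120.0 to 422 CPM in the 8 +/+ libraries and at 0.545 to 1.16 CPM in the 8 Hnrnpr-/- libraries, so every library matched its genotype label. Defining motoneuron markers were low in the somatodendritic libraries of +/+ cultures: Mnx1 had no read, Chat averaged 0.899 CPM and Isl1 5.09 CPM. The Ret transcript, at 92.5 CPM, made up most of the list. The summed level of the 9 motoneuron markers was 99.8 to 131 CPM in +/+ somatodendritic and 10.2 to 36.3 CPM in +/+ axons. Of the 7 tested ones, 4 were lower in axons, where 27.4% of all tested genes were lower and 30.1% higher. Astrocyte or radial glia and pericyte or smooth muscle markers went the other way. The 8 astrocyte or radial glia markers summed to 1462 to 2286 against 2815 to 6177 CPM in the same comparison, with 5 of 8 higher in axons. The 7 pericyte or smooth muscle markers summed to 53.4 to 425 against 1225 to 10918 CPM, with 5 of 7 higher. The 7 fibroblast or meningeal markers (2 higher in axons) summed to 111 to 622 and 305 to 3955 CPM. The 8 oligodendroglia or Schwann markers (1 higher) summed to 251 to 1034 and 274 to 1439 CPM. The 5 microglia markers (0 higher) summed to 6.48 to 26.5 and 3.61 to 57.9 CPM. In Hnrnpr-/- axons 2 of the 8 astrocyte or radial glia and 4 of the 7 pericyte or smooth muscle markers were higher, against 27.5% of all genes. Axonal replicate 3 of each genotype had the highest pericyte or smooth muscle sums (10918 and 9616 CPM) and the lowest motoneuron sums (10.2 and 4.98 CPM). In bulk RNA, fewer cells of a type and less RNA per cell cannot be told apart, and the part of these markers in the values below was not tested.

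In axons of +/+ motoneurons, potassium channel transcripts were mostly lower than in the somatodendritic compartment. Of the 82 tested members, 45 were lower, 7 were higher and 30 did not pass the test (edgeR quasi-likelihood test, adjusted p under 0.05 over all 19964 genes). Of all tested genes, 27.4% were lower and 30.1% higher. The median log2 fold change was -1.52 over the members and 0.07 over all genes. All 4 axonal libraries lay below all 4 somatodendritic ones for 46 members and above them for 6, against 27.6% and 24.8% of all genes. The pore-forming and modifier subunits were lower in 41 and higher in 3 of 67 tested cases, with a median of -1.64. Among the 15 tested auxiliary subunits 4 were lower and 4 higher, with a median of -0.39.

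**Figure D1:**
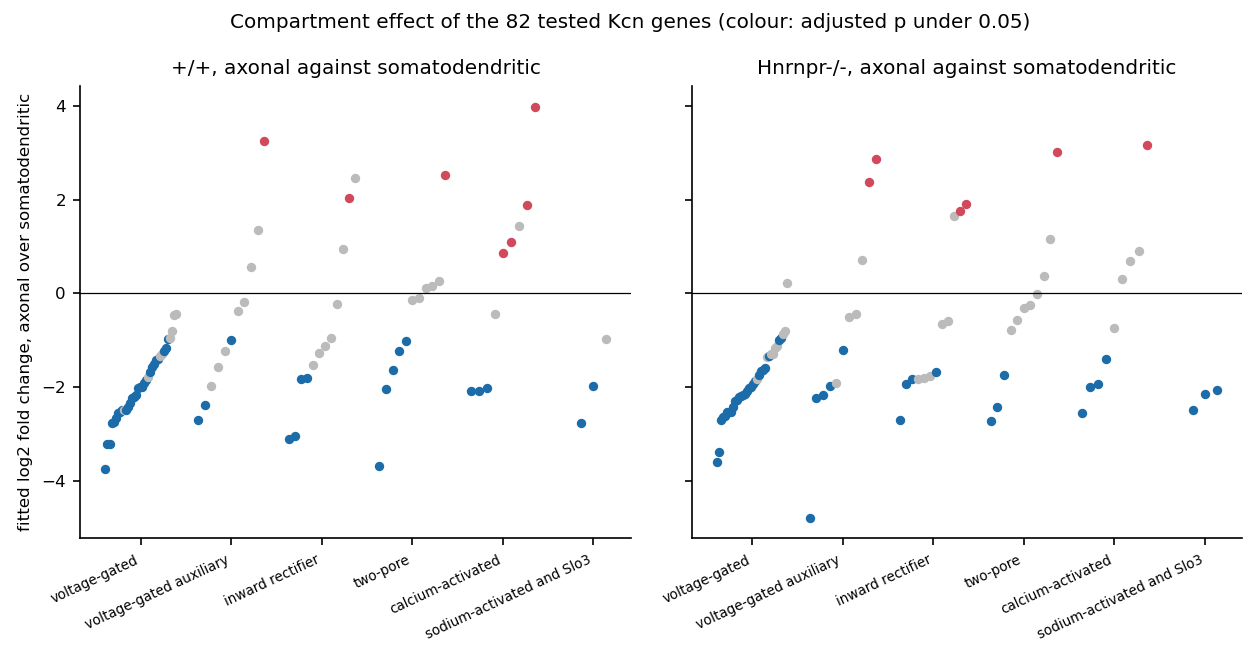
Fitted log2 fold change of axonal over somatodendritic libraries for the 82 tested Kcn genes, sorted within each family, in +/+ (left) and Hnrnpr-/- (right) motoneurons; blue and red points passed an adjusted p of 0.05 and grey points did not. No voltage-gated gene lay above 0 in +/+ motoneurons, and the +/+ points above 0 that passed belong to the auxiliary, inward rectifier, two-pore and calcium-activated families; the lowest point on the right is Kcne3, whose fitted value rests on 1 axonal read and is no measure of size.

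Voltage-gated channel genes were the largest family. Of 36 tested members, 28 were lower in +/+ axons, 0 were higher and all 36 had a negative log2 fold change, with a median of -2.01. Of all 19964 tested genes, 27.4% were lower, 30.1% were higher and 9542 had a negative log2 fold change. These shares also stand beside the counts for the groups of voltage-gated genes that follow. Shaker-related Kv1 genes, whose channels open near threshold and line many axons, were lower in 5 of 6 tested cases. Kcna6, which encodes Kv1.6, stood at 214, 205, 175 and 186 CPM in the 4 +/+ somatodendritic libraries and at 36.1, 19.7, 6.92 and 20.5 CPM in the axonal ones. The axonal libraries were all below the somatodendritic ones and replicate 3 was the lowest of them (log2 fold change -3.23 ± 0.59 (SE), adjusted p = 0.000462). Of the exonic bases of Kcna6, 39.7% overlap an antisense lncRNA, and the library kit did not mark the strand, so reads of both cannot be told apart. Kcna3, which encodes Kv1.3, went from 34.97, 43.6, 32.5 and 34.03 CPM to 9.67, 5.84, 4.81 and 8.08 CPM, again without overlap (log2 fold change -2.35 ± 0.39 (SE), adjusted p = 0.000238), and an antisense lncRNA covers 27.5% of its exonic bases. Kcna1 and Kcna2, the Kv1.1 and Kv1.2 genes of the axonal complex next to the nodes, were chosen after their values were seen: their log2 fold changes were -1.85 ± 0.55 (SE, adjusted p = 0.0103) and -2.23 ± 0.57 (SE, adjusted p = 0.00425).

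The somatic and dendritic delayed rectifiers Kv2 (2 of 2), the fast Kv3 channels of rapidly firing neurons (4 of 4) and the A-type Kv4 channels (3 of 3) were lower in axons throughout. Kcnd2, which encodes the dendritic A-type channel Kv4.2, had 175, 222, 179 and 155 CPM in +/+ somatodendritic libraries. In the axonal libraries it had 32.5, 40.4, 10.7 and 23.1 CPM, 6.85-fold less in the fit (log2 fold change -2.78 ± 0.49 (SE), adjusted p = 0.000336). Its summed exon length of 98276 bases makes its level per kb low, at 1.86 CPM per kb in somatodendritic and 0.271 in axonal libraries. Over the 9 Kv2, Kv3 and Kv4 genes the log2 fold changes ran from -2.78 for Kcnd2 to -0.97 for Kcnd3, which was chosen after its values were seen.

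KCNQ genes, which encode the Kv7 channels of the M-current, were lower in 2 of 4 tested cases. Kcnq3, chosen after its values were seen, did not pass (log2 fold change -1.33 ± 0.70 (SE), adjusted p = 0.117): its axonal values were 5.24, 25.04, 1.95 and 10.9 CPM against 17.8, 28.4, 33.7 and 28.9 CPM, and replicate 2 of the axonal libraries lay within the somatodendritic range.

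All 8 ether-a-go-go genes (Kv10 to Kv12) were lower, with log2 fold changes from -2.76 to -1.24 and a median of -2.02. Electrically silent modifiers, which form no channel alone and assemble with Kv2 subunits, were lower in 4 of 9 tested cases. Kcns2, the Kv9.2 modifier, had the most negative fold change of all members: 27.8, 20.7, 18.1 and 23.8 CPM in somatodendritic and 2.997, 0.0811, 0.195 and 3.49 CPM in +/+ axons (log2 fold change -3.74 ± 1.08 (SE), adjusted p = 0.00846). Axonal replicates 2 and 3 held almost no reads of it, while replicates 1 and 4 kept a few CPM. The 8 voltage-gated genes that did not pass had log2 fold changes from -2.48 to -0.44.

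Of the 11 tested auxiliary subunits of voltage-gated channels 3 were lower in +/+ axons, 1 was higher and 7 did not pass, so that the share of lower genes was near the 27.4% among all genes. Kcnab2 encodes the cytoplasmic Kv beta 2 subunit, which binds Kv1 channels and is known for their transport into axons. It fell from 62.2, 72.8, 61.6 and 51.8 CPM to 10.3, 10.4, 4.81 and 12.4 CPM without overlap (log2 fold change -2.71 ± 0.48 (SE), adjusted p = 0.000357). Kcnab3, another Kv beta subunit, fell less, from 7.996, 9.99, 7.37 and 8.68 to 5.04, 3.52, 4.35 and 4.04 CPM (log2 fold change -1.01 ± 0.28 (SE), adjusted p = 0.00743). Kcnip1, which encodes the calcium-binding partner KChIP1 of Kv4 channels, was the highest Kcn gene per kb in +/+ somatodendritic libraries at 35.1 CPM per kb. It fell from 145, 152, 141 and 138 CPM to 36.3, 30.7, 10.5 and 32.4 CPM (log2 fold change -2.39 ± 0.44 (SE), adjusted p = 0.000456). Kcnip2 and Kcnip3, which encode relatives of KChIP1, did not pass. Kcnip2 had 30.1, 33.8, 31.9 and 28.5 CPM against 17.4, 22.9, 3.28 and 8.93 CPM in axons (log2 fold change -1.24 ± 0.66 (SE), adjusted p = 0.122), all axonal values being lower but spread widely. Kcnip3, whose product DREAM is also a transcriptional repressor, had 33.97, 44.5, 30.7 and 30.5 CPM against 83.99, 57.3, 41.4 and 22.5 CPM in axons, where replicates 1 and 2 were above, replicate 3 within and replicate 4 below the somatodendritic range (log2 fold change 0.55 ± 0.60 (SE), adjusted p = 0.443).

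The exception was Kcne1l, a gene of a single exon at chrX:141087749-141089194 on the minus strand. It encodes a short single-pass membrane protein of the KCNE family, whose members slow or silence Kv7 and other channels. Kcne1l had 28.4, 20.2, 31.2 and 9.58 CPM in the +/+ somatodendritic libraries. In the axonal libraries it had 149, 198, 330.1 and 178 CPM, so the lowest axonal value was several times the highest somatodendritic one, and replicate 3 was the highest (log2 fold change 3.25 ± 0.41 (SE), adjusted p = 4.44e-05, 9.54-fold higher). Per kb it rose from 15.5 to 148 CPM and was the highest Kcn gene in axons. There it alone made up 56.8% of the summed level per kb of all 94 members, against 4.57% in somatodendritic libraries. No other gene in the deposited annotation overlaps it. Axonal replicate 3, where Kcne1l was highest, had the highest pericyte or smooth muscle sum (10918 CPM) and the lowest motoneuron sum (10.2 CPM). In Hnrnpr-/- axons, too, Kcne1l and the former sum were highest and the latter lowest in replicate 3. The +/+ axonal replicate 2 had the lowest pericyte or smooth muscle sum (1225 CPM) but more Kcne1l than replicates 1 and 4. The part of these markers in the result was not tested. Kcne3 and Kcne4, of the same group, did not pass in this comparison. Kcne3 had 16 reads over the 4 somatodendritic and 21 over the 4 axonal libraries of +/+ motoneurons.

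Inward rectifier genes were lower in 4 and higher in 1 of 12 tested cases, with a median of -1.21. The share of lower genes was again near the 27.4% among all genes, and that of higher genes below the 30.1%. Kcnj9 and Kcnj6 encode the G-protein-gated subunits GIRK3 and GIRK2, which slow firing in response to transmitters. Kcnj9 fell from 11.5, 12.96, 10.8 and 11.5 CPM to 2.32, 0.108, 1.59 and 1.65 CPM (log2 fold change -3.05 ± 0.60 (SE), adjusted p = 0.000764), with replicate 2 close to no reads. Kcnj6 fell from 12.3, 15.6, 9.36 and 20.5 to 3.51, 6.63, 0.715 and 5.26 CPM (log2 fold change -1.84 ± 0.63 (SE), adjusted p = 0.0217; 0.0626 without somatodendritic replicate 4). Kcnj12, a strong inward rectifier of the Kir2 group, fell from 11.6, 10.98, 11.4 and 14.3 to 3.61, 2.33, 0.975 and 6.91 CPM (log2 fold change -1.81 ± 0.45 (SE), adjusted p = 0.00365). Its relative Kcnj14 was rare, at 1.03, 1.17, 1.45 and 1.22 CPM in somatodendritic and 0.102, 0, 0.455 and 0 CPM in axons (log2 fold change -3.11 ± 0.87 (SE), adjusted p = 0.00715). Its size depended on single libraries, with a log2 fold change of -5.04 without axonal replicate 3 and -2.66 without axonal replicate 4. Kcnj16, the Kir5.1 subunit that pairs with Kir4.1, was the highest inward rectifier per kb in both compartments (6.905 and 5.86 CPM per kb) and did not differ by the test. It had 33.8, 28.1, 33.5 and 23.8 CPM in the former and 29.2, 34.3, 9.62 and 28.1 CPM in the latter (log2 fold change -0.24 ± 0.55 (SE), adjusted p = 0.732), and apart from axonal replicate 3 the ranges overlapped. Kcnj11, the Kir6.2 pore of the ATP-sensitive channel, was named by its level per kb and did not pass (log2 fold change -1.13 ± 0.79 (SE), adjusted p = 0.235).

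Kcnj10, the inward rectifier Kir4.1 known for buffering potassium in astrocytes, was the member of this family that rose. It had 6.67, 6.12, 4.596 and 3.38 CPM in +/+ somatodendritic and 21.5, 36.2, 16.9 and 10.5 CPM in axons, and the lowest axonal value exceeded the highest somatodendritic one (log2 fold change 2.03 ± 0.42 (SE), adjusted p = 0.000956). The astrocyte or radial glia marker sum was highest in the same axonal library as Kcnj10, replicate 2, at 6177 CPM, and lowest in replicate 4, at 2815 CPM, where Kcnj10 was also lowest. Its part in the result was not tested.

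Two-pore channel genes showed the widest range between pore-forming members of a family. Of 11 tested, 5 were lower and 1 was higher, against 27.4% and 30.1% of all genes, with a median log2 fold change of -0.14. Kcnk9 encodes the acid-sensitive leak channel TASK-3 and was by CPM per kb the highest two-pore gene of somatodendritic libraries, at 22.3. It had 342, 395, 371 and 298 CPM there and 35.6, 26.7, 5.296 and 41.9 CPM in axons, a 12.8-fold fall (log2 fold change -3.68 ± 0.93 (SE), adjusted p = 0.0038). Kcnk3, the closely related TASK-1 gene, fell from 18.4, 26.5, 23.1 and 16.6 CPM to 4.97, 12.9, 3.31 and 5.87 CPM (log2 fold change -1.64 ± 0.50 (SE), adjusted p = 0.0112). Kcnk10, the mechanosensitive TREK-2 gene, fell from 80.4, 78.2, 81.04 and 80.4 to 21.8, 35.6, 58.5 and 19.6 CPM (log2 fold change -1.24 ± 0.37 (SE), adjusted p = 0.0111), its axonal replicate 3 being the highest of the 4 and not the lowest. Kcnk4, the TRAAK gene of nodes of Ranvier, fell from 7.603, 5.27, 7.21 and 4.79 to 1.703, 0.946, 0.552 and 2.78 CPM (log2 fold change -2.05 ± 0.77 (SE), adjusted p = 0.0336), but with each +/+ library left out in turn the adjusted p lay between 0.0545 and 0.0921 in 6 of 8 fits, the exceptions being replicate 4 of either compartment.

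Kcnk2, which encodes the mechanosensitive TREK-1 channel, and Kcnk1, which encodes TWIK-1, did not pass. Kcnk2 had 27.6, 22.7, 27.6 and 27.1 CPM in somatodendritic and 19.3, 17.2, 27.6 and 31.4 CPM in axons (log2 fold change -0.14 ± 0.22 (SE), adjusted p = 0.614). Kcnk1 had 26.4, 27.8, 33.3 and 29.7 and 14.03, 45.8, 49.03 and 17.3 CPM (log2 fold change 0.11 ± 0.53 (SE), adjusted p = 0.877). With these values Kcnk1 and Kcnk2 were the highest two-pore genes per kb in axons, at 5.78 and 4.61 CPM per kb, whereas Kcnk9 stood at 1.74 there. Kcnk5, the alkaline-activated TASK-2 gene, rose from 0.332, 0.855, 1.74 and 0.516 CPM to 4.73, 3.08, 8.77 and 3.21 CPM without overlap (log2 fold change 2.52 ± 0.61 (SE), adjusted p = 0.003), from a low level.

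Among the 9 genes of calcium-activated channels, 3 were lower, 4 were higher and 2 did not pass, where 27.4% of all genes were lower and 30.1% higher. The pore of the large-conductance BK channel, Kcnma1, fell from 135, 149, 133 and 151 CPM to 33.9, 52.6, 12.5 and 35.2 CPM (log2 fold change -2.08 ± 0.50 (SE), adjusted p = 0.00277). Its beta subunits, which set calcium sensitivity and inactivation, differed in direction. Kcnmb2 fell from 11.6, 12.4, 12.4 and 16.8 to 2.62, 4.98, 0.585 and 4.93 CPM (log2 fold change -2.02 ± 0.68 (SE), adjusted p = 0.0198). Kcnmb4, the neuronal beta subunit, rose from 15.6, 17.3, 14.6 and 13.5 to 40.2, 51.6, 20.1 and 19.3 CPM, its lowest axonal value being just above the highest somatodendritic one (log2 fold change 1.10 ± 0.43 (SE), adjusted p = 0.0378); the adjusted p lay between 0.0504 and 0.128 without axonal replicate 1 or 2 or any 1 of the somatodendritic libraries. Further, 2 antisense lncRNAs cover 12.7% and 6.14% of its exonic bases. Kcnmb1, the beta subunit best known from smooth muscle, rose from 0.845, 0.405, 2.03 and 0.469 CPM to 8.92, 3.49, 22.97 and 24.6 CPM (log2 fold change 3.99 ± 0.67 (SE), adjusted p = 0.000254). Kcnmb3 passed with 1.21, 1.53, 1.41 and 1.46 CPM against 2.11, 14.8, 2.47 and 1.22 CPM, a value carried by axonal replicate 2: without that library its log2 fold change was 0.46 with an adjusted p of 0.298. The same library had the highest summed level of 5 nuclear RNA markers, 2468 CPM against 543 to 1240.3 CPM in the other +/+ axonal libraries, and the part of this in the result was not tested.

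Small-conductance SK channels open on calcium alone and shape the afterhyperpolarization. Kcnn1 (SK1) fell from 13.7, 9.68, 24.1 and 11.4 CPM to 5.24, 2.35, 2.53 and 3.79 CPM (log2 fold change -2.08 ± 0.50 (SE), adjusted p = 0.00279). Kcnn3 (SK3) rose from 8.51, 5.18, 6.83 and 4.46 to 13.1, 10.9, 11.5 and 9.61 CPM with no overlap (log2 fold change 0.85 ± 0.28 (SE), adjusted p = 0.0181). Kcnn2 (SK2), known from motoneurons, did not pass (log2 fold change -0.44 ± 0.43 (SE), adjusted p = 0.391). Both sodium-activated channel genes were lower. Kcnt1, the Slack channel, fell from 104, 106, 81.8 and 90.03 to 17.5, 13.2, 2.96 and 22.5 CPM (log2 fold change -2.76 ± 0.67 (SE), adjusted p = 0.00284). Kcnt2, the Slick channel, fell from 5.01, 6.66, 5.88 and 5.07 to 0.886, 3.35, 0.325 and 1.101 CPM (log2 fold change -1.99 ± 0.57 (SE), adjusted p = 0.00813). Kcnu1, the Slo3 channel of sperm, had 2.66 to 5.41 CPM in somatodendritic libraries of both genotypes and did not pass in +/+ axons (log2 fold change -0.98 ± 0.60 (SE), adjusted p = 0.177).

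**Figure D2:**
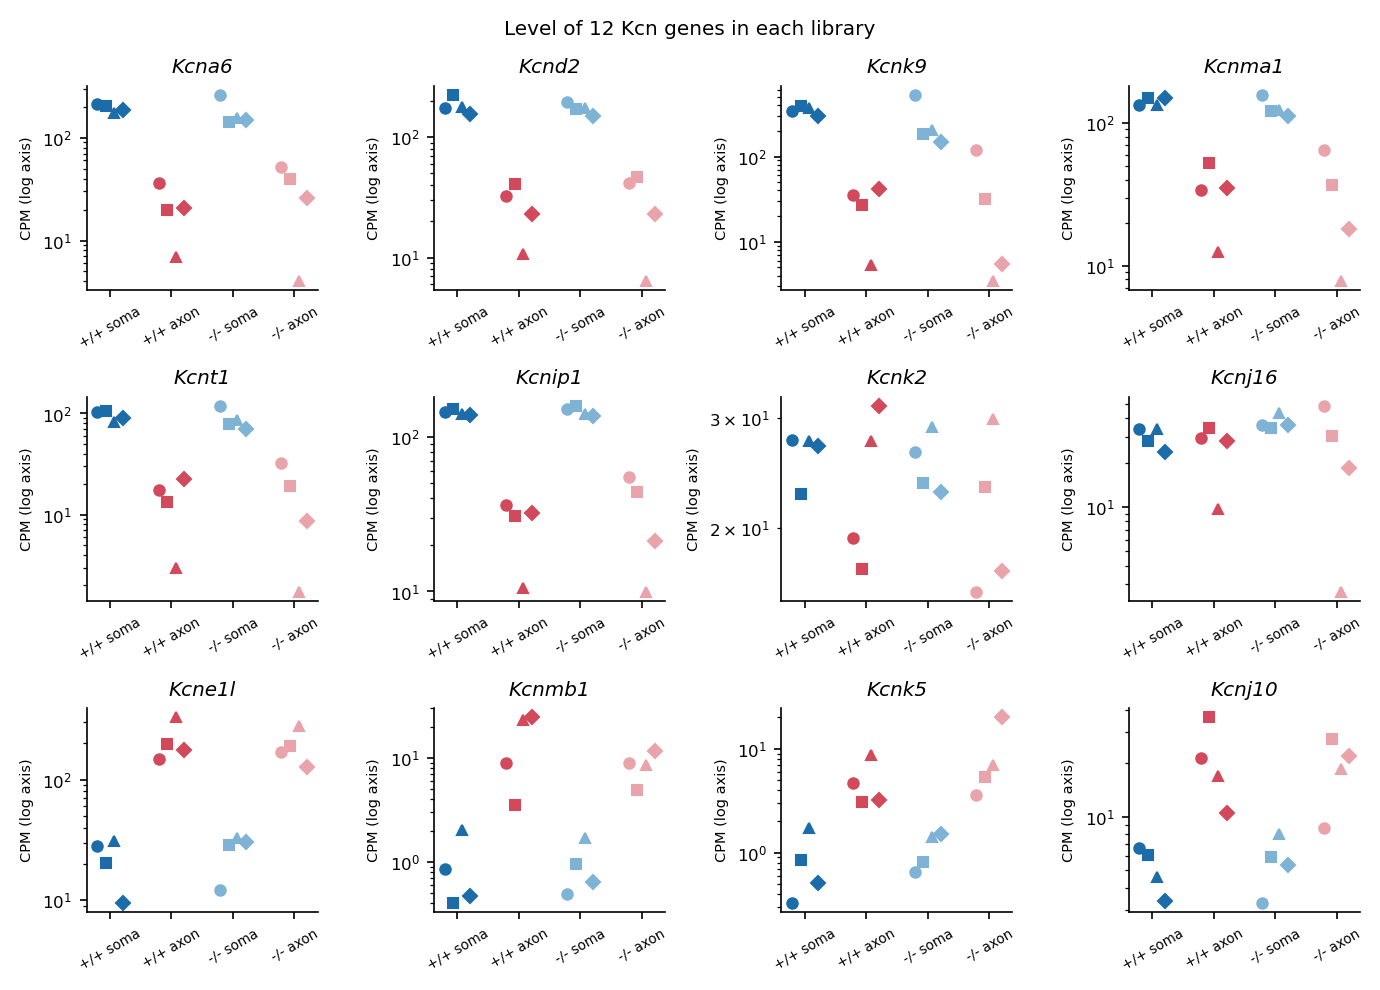
CPM on a log axis of 12 Kcn genes in each of the 16 libraries, grouped by genotype and compartment (+/+ and -/- for Hnrnpr-/-; soma for somatodendritic), with circles, squares, triangles and diamonds for replicates 1 to 4. In Kcna6, Kcnd2, Kcnk9, Kcnma1, Kcnt1 and Kcnip1 every axonal point of a genotype lies below its somatodendritic points, in the 4 genes of the bottom row every axonal point lies above them, and Kcnk2 and Kcnj16 overlap; the axonal triangle (replicate 3) is the lowest of its group in each of the first 6 genes.

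Family sums of CPM per kb of exon over all members, passing the filter or not, summarise these levels without a test. The voltage-gated family summed to 162, 175, 151 and 149 CPM per kb in the +/+ somatodendritic libraries (mean 159 ± 12.03, SD, n = 4) and to 37.9, 41.7, 18.5 and 37.1 in the axonal ones (mean 33.8 ± 10.4), 4.71 times less. The sum of the sodium-activated channels and Slo3 was 5.39 times lower, from 12.3 ± 1.202 to 2.28 ± 1.28 CPM per kb, and the two-pore family from 49.4 ± 3.39 to 20.1 ± 3.71. The inward rectifier sum was 16.3 ± 1.15 against 11.5 ± 4.18 CPM per kb and the calcium-activated sum 18.8 ± 1.52 against 17.03 ± 3.51, in both cases with overlapping libraries. In Hnrnpr-/- motoneurons the calcium-activated sum was 19.6 ± 1.57 in somatodendritic and 11.7 ± 4.15 CPM per kb in axonal libraries, which did not overlap. The auxiliary sum of +/+ motoneurons ran the other way, from 82.3 ± 9.41 to 175 ± 47.9 CPM per kb, through Kcne1l: without it the sum was 66.9 ± 4.43 in somatodendritic and 27.7 ± 7.71 in axonal libraries. In Hnrnpr-/- libraries the voltage-gated sum was 146 ± 34.5 in somatodendritic and 36.6 ± 21.6 CPM per kb in axonal libraries, the two-pore sum 42.7 ± 12.5 and 28.5 ± 11.98, and the auxiliary sum 85.6 ± 4.003 and 169 ± 36.7. The axonal two-pore sum of Hnrnpr-/- replicate 3 (44.7 CPM per kb) was the highest of its group through Kcnk1, which stood at 42.7, 52.5, 161 and 16.01 CPM in the 4 libraries. Kcnip1, Kcna6, Kcnk9 and Kcna3 were among the 5 Kcn genes with the highest level per kb in +/+ somatodendritic libraries. Kcne1l, Kcnip3, Kcnip1, Kcnj16, Kcnmb4, Kcnk1 and Kcnk2 had the highest in +/+ axonal ones, where the levels from Kcnip3 (8.13 CPM per kb) down to Kcnk2 (4.61) differed by less than their spread.

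**Figure D3:**
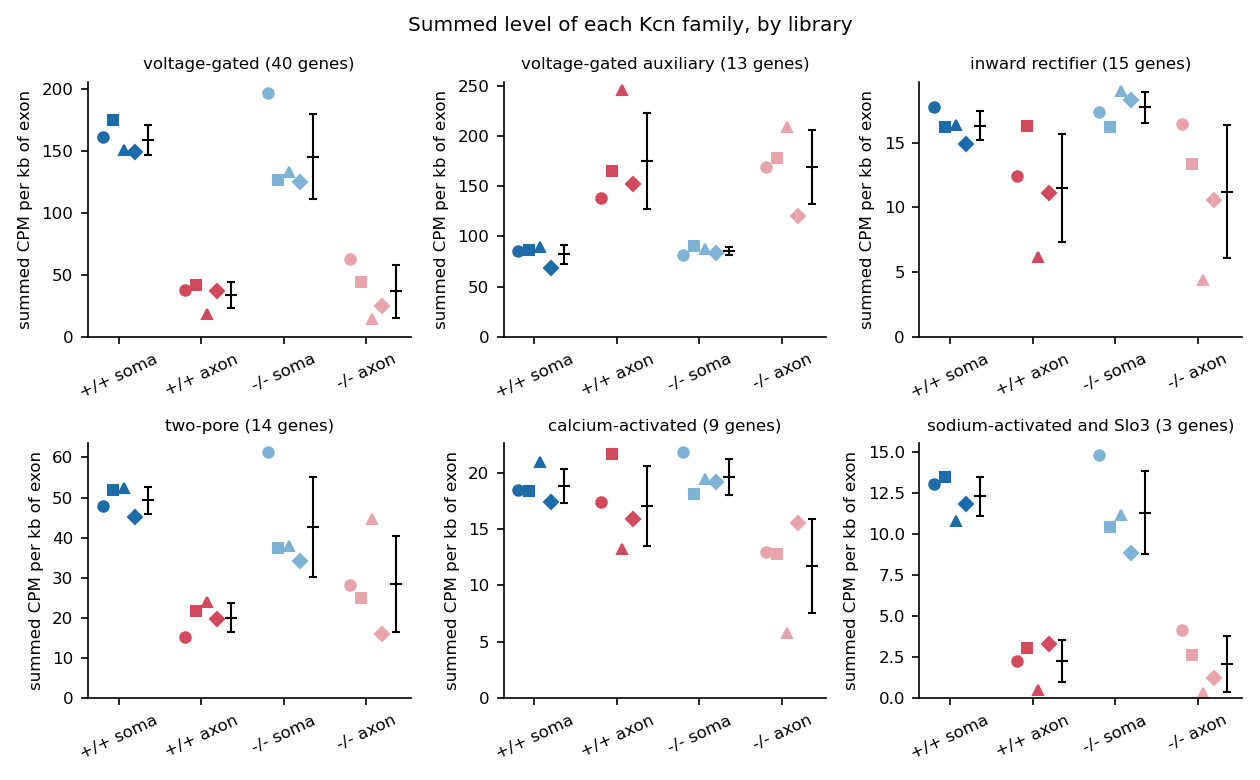
Summed CPM per kb of exon over all members of each Kcn family in every library (circles, squares, triangles and diamonds for replicates 1 to 4), with the mean and SD of each group of 4 as a black bar; each panel has its own linear axis from 0. The sums of voltage-gated channels and of sodium-activated channels with Slo3 are in both genotypes lower in every axonal library than in any somatodendritic one, and the auxiliary sum is higher in every axonal library through Kcne1l.

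At a level of at least 1 CPM in all 4 libraries, 70 of the 94 members were present in +/+ somatodendritic and 51 in +/+ axonal libraries (69 and 44 in Hnrnpr-/- ones), and the inward rectifiers fell from 8 to 2 of 15 by this measure. The same counts over all genes were not computed, so a fall particular to these members is not shown. The 12 untested members (Kcna7, Kcna10, Kcnq1, Kcnv2, Kcne1, Kcne2, Kcnj1, Kcnj5, Kcnj15, Kcnk15, Kcnk16 and Kcnk18) stayed at or below 1.201 CPM in every library, and Kcnk16 had no read in any of the 16. At these depths a count of 0 in a library allows up to 3 counts.

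The axonal libraries differed among themselves. Of the 45 members lower in +/+ axons, 30 had their lowest +/+ axonal value in replicate 3, the library with the lowest motoneuron sum, as did 58.4% of all genes lower in +/+ axons. In the Hnrnpr-/- axons 38 of the same 45 were lowest in replicate 3, and 34 were highest in replicate 1, the axonal library with the highest motoneuron sum (77.04 CPM). Of all genes lower in +/+ axons, 58.4% were lowest in that replicate 3 and 67.0% highest in that replicate 1. For Kcnmb1, the highest +/+ axonal values, 22.97 and 24.6 CPM, were in replicates 3 and 4, where the pericyte or smooth muscle marker sum was 10918 and 4835 CPM, and the lowest in replicate 2, where the pericyte or smooth muscle sum was 1225 CPM. In Hnrnpr-/- axons this order did not hold: replicate 3 had the highest pericyte or smooth muscle sum (9616 CPM), while its Kcnmb1 value of 8.55 CPM was below the 11.6 and 9.01 CPM of replicates 4 and 1. Without axonal replicate 3 of both genotypes, an alternative chosen after the data were seen, 44 members were lower and 7 higher in +/+ axons. Without replicate 3 of the +/+ axons alone, 36 were lower.

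**Figure D4:**
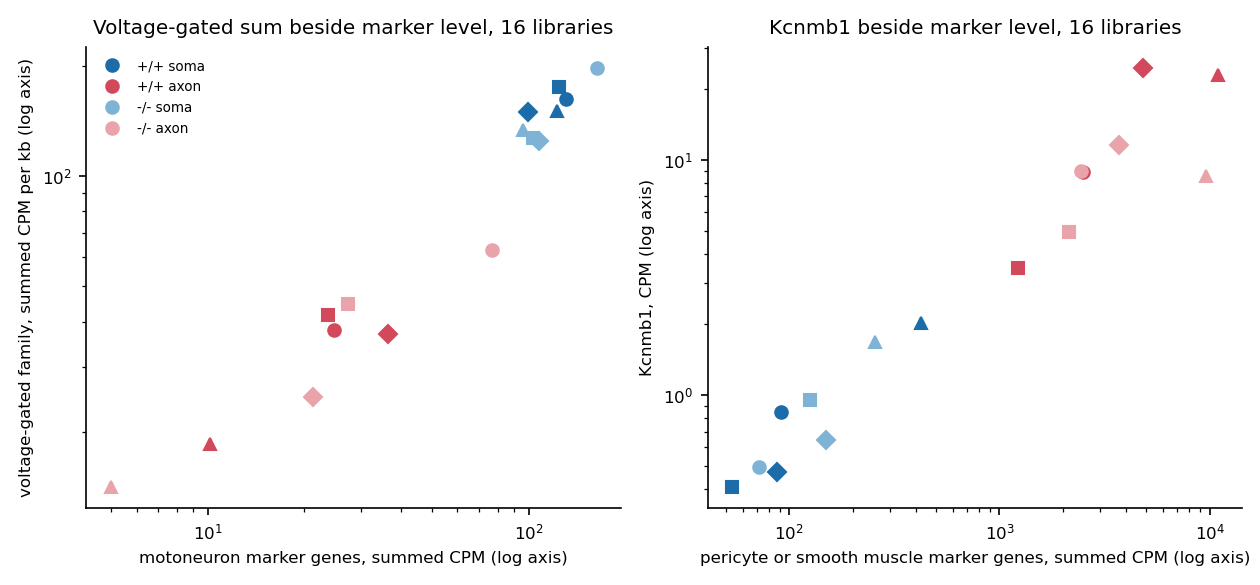
Left, summed CPM per kb of the voltage-gated family against the summed CPM of 9 motoneuron markers; right, CPM of Kcnmb1 against the summed CPM of 7 pericyte or smooth muscle markers; both axes are logarithmic and each point is 1 of the 16 libraries, with shapes for replicates 1 to 4. The 8 axonal libraries lie to the lower left of the 8 somatodendritic ones on the left, down to 14.1 CPM per kb in Hnrnpr-/- axonal replicate 3, and to their upper right on the right; both measures of a point come from the same library, so the plot is a description.

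The same comparison in Hnrnpr-/- motoneurons rests on 8 other libraries. Deviations of same-numbered axonal libraries of the 2 genotypes correlated at 0.0437 to 0.851, the highest for replicate 3. Whether the comparisons in the 2 genotypes are independent was not tested. In Hnrnpr-/- motoneurons 46 of the 82 tested members were lower in axons and 6 higher, against 26.8% and 27.5% of all tested genes, with a median log2 fold change of -1.75. All axonal libraries lay below all somatodendritic ones for 48 members and above them for 4, where 27.3% and 24.1% of all genes did so. Members lower in both genotypes numbered 39, that is 39 of the 45 and of the 46. Among all tested genes 23.1% were lower in both, 4612 of the 5468 lower in +/+ and of the 5344 lower in Hnrnpr-/- axons. Higher in both were 4 members, Kcne1l, Kcnmb1, Kcnk5 and Kcnj10, against 25% of all genes. The sign was the same in both genotypes for 79 of 82 members, and the same share over all genes was not computed. Voltage-gated genes were lower in 27 and higher in 0 of 36 cases, and auxiliary genes lower in 5 and higher in 2 of 11. Inward rectifiers were lower in 4 and higher in 2 of 12 cases, two-pore genes in 3 and 1 of 11 and calcium-activated genes in 4 and 1 of 9. Kcnt1, Kcnt2 and Kcnu1 were lower.

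Of the 4 members higher in both genotypes, Kcne1l had 12.1, 28.9, 32.5 and 30.5 CPM in somatodendritic and 169, 191, 278 and 128 CPM in axonal Hnrnpr-/- libraries (log2 fold change 2.88 ± 0.41 (SE), adjusted p = 0.000107). Kcnmb1 rose from 0.494, 0.953, 1.68 and 0.644 to 9.01, 4.94, 8.55 and 11.6 CPM (log2 fold change 3.17 ± 0.65 (SE), adjusted p = 0.00109). Kcnk5 rose from 0.659, 0.823, 1.42 and 1.502 to 3.604, 5.34, 7.02 and 20.1 CPM (log2 fold change 3.03 ± 0.62 (SE), adjusted p = 0.00111) and Kcnj10 rose from 3.29, 5.93, 8.04 and 5.36 to 8.602, 27.2, 18.5 and 21.8 CPM (log2 fold change 1.75 ± 0.41 (SE), adjusted p = 0.00271). In each of these the groups did not overlap. Kcne4 and Kcnj4, named after their values were seen, passed in Hnrnpr-/- but not in +/+ motoneurons. Kcne4 had 1.69, 0.823, 3.69 and 2.66 CPM against 32.3, 2.36, 8.403 and 3.05 CPM in axons with replicate 1 far above the others (log2 fold change 2.38 ± 0.80 (SE), adjusted p = 0.0204), and Kcnj4 had a log2 fold change of 1.91 ± 0.72 (SE, adjusted p = 0.0359). The difference between the genotypes did not pass for either gene. Both calls depended on single libraries: without Hnrnpr-/- axonal replicate 1 the log2 fold change of Kcne4 was 1.05 (adjusted p = 0.18) and that of Kcnj4 1.89 (adjusted p = 0.0513), and without axonal replicate 4 that of Kcnj4 was 1.31 (adjusted p = 0.147).

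Among the strongly lower members, Kcnk9 had 523, 186, 207 and 148 CPM in somatodendritic and 119, 31.8, 3.51 and 5.44 CPM in axonal Hnrnpr-/- libraries (log2 fold change -2.73 ± 0.89 (SE), adjusted p = 0.0176). Replicate 1 was the highest of both compartments, and without the somatodendritic replicate 1 the log2 fold change was -2.12 and the adjusted p 0.0671. Without the axonal replicate 1 the log2 fold change of Kcnk9 was -4.29. Kcna6 fell from 259, 144, 156 and 148 to 51.7, 39.3, 4.08 and 26.03 CPM (log2 fold change -2.54 ± 0.58 (SE), adjusted p = 0.00212). Kcnma1 and Kcnt1 were also lower, with log2 fold changes of -2.01 and -2.50 at adjusted p = 0.00379 and 0.00552. Kcnk2 and Kcnj16 again did not pass (adjusted p = 0.377 and 0.386), with log2 fold changes of -0.24 and -0.59. Kcne3 had 31 reads over the somatodendritic and 1 over the axonal Hnrnpr-/- libraries, a ratio of 42.7 at equal depth with an exact 95% counting interval of 7.11 to 1738 (adjusted p = 0.0137).

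**Figure D5:**
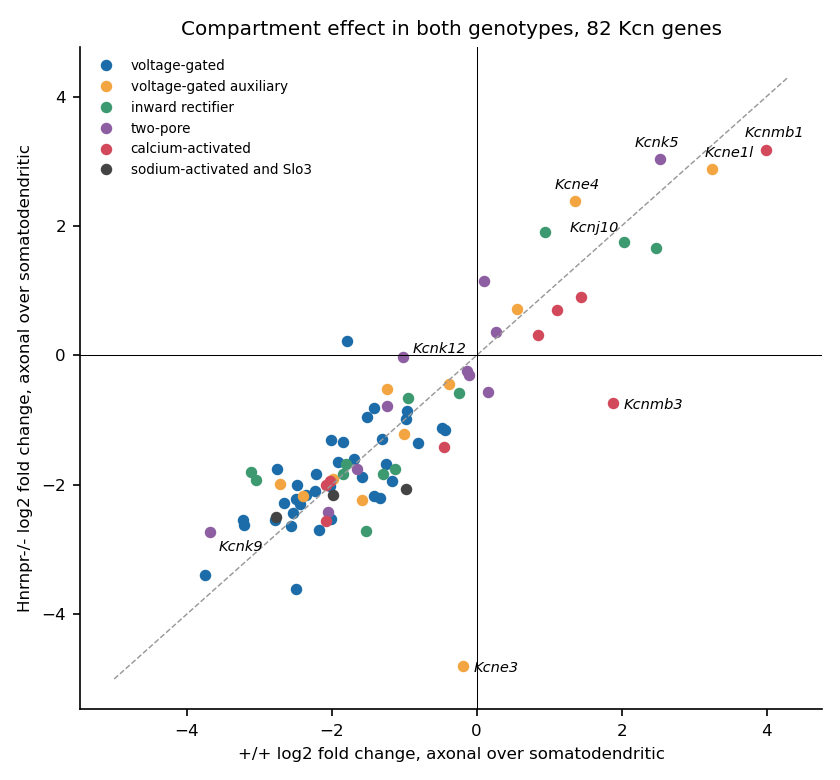
Fitted log2 fold change of axonal over somatodendritic libraries in +/+ (horizontal) and Hnrnpr-/- motoneurons (vertical) for the 82 tested Kcn genes, coloured by family, with the line of equal change dashed. Most points lie in the lower left, Kcne1l, Kcnmb1, Kcnk5 and Kcnj10 in the upper right. Kcnmb3, Kcne3 and Kcnk12 are the 3 members with an unadjusted p under 0.05 for the difference between the genotypes, and some points without a name lie as far from the line as Kcnk12 or farther.

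No potassium channel transcript passed the test for the loss of hnRNP R in either compartment. In the somatodendritic compartment 0 of the 82 members passed the adjusted threshold in edgeR, DESeq2 or limma, and 0 had an unadjusted p under 0.05 in edgeR (0.00501% and 0.601% of all genes). In axons 0 passed the adjusted threshold in these tools and 2 the unadjusted one, against 0.01% and 3.88% of all genes. At the unadjusted threshold DESeq2 gave 1 member in the somatodendritic and 5 in the axonal compartment (0.599% and 3.67% of all genes), and limma voom 2 and 1 (3.03% and 0.666%). Without Hnrnpr-/- axonal replicate 1 edgeR gave 11 members and 6.78% of all genes, without +/+ axonal replicate 3 it gave 8 and 7.17%, and without Hnrnpr-/- axonal replicate 3 it gave 5 and 4.41%. It gave 4 members without +/+ axonal replicate 1 (7.74%) and without Hnrnpr-/- axonal replicates 2 or 4 (3.56% and 3.83%). The somatodendritic count was 0 or 1 with any library left out. The median log2 fold change of Hnrnpr-/- over +/+ was -0.06 in the somatodendritic compartment and -0.05 in axons. The difference between the genotypes in the compartment effect passed for 0 members by adjusted p in any of these tools and for 3 by unadjusted p in edgeR, while 0% and 1.33% of all genes did so. A p that misses the threshold does not show that the levels are alike. For Kcna6 the log2 difference of Hnrnpr-/- from +/+ was -0.14 ± 0.54 (SE) in somatodendritic libraries and 0.54 ± 0.55 in axons. It was -0.40 ± 0.84 and 0.54 ± 0.84 for Kcnk9, and 0.22 ± 0.38 and -0.16 ± 0.38 for Kcne1l.

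The 2 members under the unadjusted threshold in axons were Kcnmb3 and Kcne3. Kcnmb3 had 2.11, 14.8, 2.47 and 1.22 CPM in +/+ and 1.86, 1.18, 0.7502 and 1.06 CPM in Hnrnpr-/- axons, the difference being carried by +/+ replicate 2 (log2 fold change -2.08 ± 0.63, SE; unadjusted p = 0.00496 and adjusted p = 1 in the quasi-likelihood test). Kcne3 had 21 reads over the +/+ and 1 over the Hnrnpr-/- axonal libraries, 17 of the 21 in +/+ replicate 2 (unadjusted p = 0.0274, adjusted p = 1 in the same test). The third member with a difference of compartment effects, Kcnk12, a silent two-pore gene named after its values were seen, fell in +/+ axons (log2 fold change -1.02 ± 0.33 (SE), adjusted p = 0.0155) and had a log2 fold change of -0.02 ± 0.33 in Hnrnpr-/- axons (unadjusted p of the difference = 0.0466, adjusted p = 1, quasi-likelihood test).

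Proteins that assemble with potassium channels, hold them in place or oppose them by moving potassium back were taken as a list of 32 genes. In +/+ axons 22 of them were lower and 3 higher, with a median log2 fold change of -2.12, where 27.4% of all genes were lower and 30.1% higher. In Hnrnpr-/- axons 22 were lower and 2 higher (median -1.98), against 26.8% and 27.5% of all genes. The Kv4 auxiliary genes Dpp6 and Dpp10, which encode membrane partners of Kcnd products, averaged 383 ± 25.9 and 76.1 ± 7.86 CPM (SD, n = 4) in somatodendritic libraries and 74.1 ± 37.4 and 9.78 ± 5.94 CPM in axons (log2 fold changes -2.37 and -2.96). Genes of the axonal Kv1 complex were lower in 7 of 9 cases, among them the scaffold Dlg2 (log2 fold change -3.41 ± 0.73 (SE), adjusted p = 0.00127). The adhesion molecules Cntn2 (log2 fold change -2.72 ± 0.60 (SE), adjusted p = 0.00152) and Cntnap2 (log2 fold change -1.99 ± 0.69 (SE), adjusted p = 0.0234) and the LGI receptor Adam22 (log2 fold change -2.52 ± 0.46 (SE), adjusted p = 0.000466) were lower too. The initial segment anchors Ank3 and Sptbn4, which hold Kv7 channels, had log2 fold changes of -1.84 and -3.26 (adjusted p = 0.00208 and 0.000661). Abcc8, the sulfonylurea receptor of the ATP-sensitive channel, fell by 3.25 on the log2 scale (adjusted p = 0.00311), and the Kv2 partner Amigo1 and the contact-site protein gene Vapb had log2 fold changes of -2.49 and -2.16 (adjusted p = 9.28e-05 and 5.14e-05). Hcn2, Hcn3 and Hcn4, genes of the cation channels that oppose hyperpolarization, had values from -2.82 to -2.35, and the BK gamma subunit gene Lrrc55 -2.12. Adam23, Lgi1, Dlg4 and Atp1b2 lay between -2.13 and -1.29. Lrrc26 (lower) and Lrrc52 (higher) also passed and stayed under 1 CPM on average in both compartments.

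The beta subunits of the sodium-potassium pump, which restores the potassium gradient, divided between the compartments. Atp1b1 averaged 711 ± 91.5 CPM in +/+ somatodendritic and 171 ± 64.1 CPM in axons (log2 fold change -2.06 ± 0.54 (SE), adjusted p = 0.00468), and Atp1b3 rose from 169 ± 20.2 to 239.7 ± 49.9 CPM (log2 fold change 0.50 ± 0.18 (SE), adjusted p = 0.0265). In Hnrnpr-/- motoneurons the log2 fold changes were -1.93 for Atp1b1 and 0.54 for Atp1b3 (adjusted p = 0.00733 and 0.02).

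Kcn genes are long, with a median summed exon length of 5906 bases among the 82 tested members. The median was 3449 among all tested genes and 3847.5 among the protein-coding ones. Across the members, which are not independent replicates, longer exons went with a lower log2 fold change of +/+ axonal over somatodendritic libraries (Spearman's rho -0.35 over 82 genes). The same held across all 19964 genes (-0.34) and across the 15378 protein-coding ones (-0.38). In Hnrnpr-/- motoneurons these values were -0.30, -0.38 and -0.41. In GENCODE the exons of 47 of the 94 members overlap those of another gene, mostly antisense lncRNAs. These include 26 of the 45 members lower and 2 of the 7 higher in +/+ axons (Kcnmb4 and Kcnj10).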

How the data were processed

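RNA from 4 libraries in each of 4 groups (+/+ and Hnrnpr-/- motoneurons, somatodendritic and axonal) was amplified with a SMART-Seq v4 kit, with more PCR cycles for axons, as the study's methods state. Kits of this type do not mark the strand. The authors trimmed reads, aligned them with STAR 2.7.2b to GRCm39 and counted exons with featureCounts 1.6.4 in a reverse-strand setting. Reads with several alignments or genes were divided, so the deposited values are expected counts that can be fractions, without normalization. Total counts were 22024923 to 34864151, and intervals and floors cover counting error only.

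Counts were rounded and analysed in R 4.3.3. The edgeR 4.0.16 quasi-likelihood test (TMM factors, expression filter by group, a mean per group, 16 libraries) gave 2-sided p-values, adjusted by Benjamini-Hochberg over 19964 genes at a threshold of 0.05. The SE is the log2 fold change divided by the root of F. Alternatives covered scaling, filters, rounding, DESeq2 1.42.0, limma 3.58.1 (voom), subsets of libraries or genes, and the replicate number as a block. Deviations of same-numbered libraries correlated at 0.129 to 0.601 between the Hnrnpr-/- compartments and at 0.063 to 0.342 between the +/+ compartments. Between the genotypes they correlated at 0.0104 to 0.607 in somatodendritic and 0.0437 to 0.851 in axonal libraries, in both highest for replicate 3. Labels do not say what a number marks. Members, families, partners and markers were chosen with earlier results of these data known. Named were members under 0.05 for the genotype, the 4 most negative and positive called members and the 3 highest per kb of each family in +/+ libraries, and called partners of at least 5 CPM; others are said to be chosen after their values were seen. Some items under this rule are not reported here. Coding sequences are from GENCODE and GRCm39.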

Additional observations from a re-analysis of the deposited data

Results flagged for a closer look

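In 132 groups of 4 libraries (6 family sums and the 27 named members called in +/+ axons, in each of the 4 groups), 8 had a library whose gap to the nearest of the others exceeded Dixon's 95% critical value, where chance gives about 1 in 20. The number flagged is near that share. Hnrnpr-/- somatodendritic replicate 1 was the highest in 5 of the 8. Those 5 are not separate items, because the sums contain Kcna6, Kcnk9 and Kcnk10. Among the somatodendritic libraries 32.9% of the tested members were highest in this library, against 18.4% of all genes. This library had a voltage-gated sum of 197 CPM per kb against 125 to 133 in the other 3 libraries, and a two-pore sum of 61.3 CPM per kb against 34.2 to 37.9. Its CPM was 259 for Kcna6, 99.8 for Kcnk10 and 523 for Kcnk9, the last against 148 to 207 in the others. The motoneuron marker sum was also highest there, at 163 CPM, and its part in these values was not tested. In +/+ somatodendritic replicate 4 the auxiliary sum was the lowest at 68.4 CPM per kb and Kcnmb2 the highest at 16.8 CPM. Kcnmb3 stood at 14.8 CPM in +/+ axonal replicate 2 against 1.22 to 2.47 CPM in the other +/+ axonal libraries.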

How the results depend on the processing

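Under RLE factors, library totals without TMM, no or a stricter filter, unrounded counts, both DESeq2 settings, fits of the groups compared, protein-coding genes only and the replicate block, +/+ axons had 45 to 48 lower and 6 or 7 higher members and Hnrnpr-/- axons 42 to 56 lower and 6 higher. With limma voom, chosen after the data were seen, these were 53 and 6, and 57 and 5. With the replicate block there were 48 lower and 6 higher in +/+ and 56 lower and 6 higher in Hnrnpr-/- axons, and with the block within a genotype, added later, 51 and 6, and 49 and 5, so no count moved by over 1.5 times. Leaving out each library gave 36 to 50 lower and 5 to 8 higher in +/+ axons and 41 to 55 and 4 to 7 in Hnrnpr-/- axons. No member passed for the genotype or the difference of effects at an adjusted p under 0.05 in any of these fits. The unadjusted count for the genotype in axons, 2, lay between 1 and 11, and that of the difference, 3, between 1 (without Hnrnpr-/- somatodendritic replicate 4 or with the stricter filter) and 5 (without axonal replicate 3 of both genotypes). No named member changed sign. Kcnmb3 lost its +/+ call without axonal replicate 2 (log2 fold change 0.46) and with the block (adjusted p = 0.054, and 0.142 with the block within the genotype), in a fit of the groups compared (0.052) and with voom (0.0549), and Kcnk4 and Kcnmb4 lost it in 6 of 8 fits with a +/+ library left out each. In Hnrnpr-/- axons Kcnk9, Kcnk4, Kcnmb2 and Kcnj6 lost theirs in 2, 1, 4 and 2 fits, none of them with the block. Kcne4 also lost its call without somatodendritic replicates 1 or 2 (adjusted p = 0.0524 and 0.0543) and with the block within the genotype (0.0655), and Kcnj4 without somatodendritic replicates 2, 3 or 4 (0.0668, 0.086 and 0.0828) and with voom (0.067). Family sums moved by less than 1 SD without TMM and over tested members only. Depth limits members near 1 CPM, above all Kcne3, Kcnj14 and Kcns2 in axons.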

Other observations

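The count table also holds 4 rows with Kcn symbols that are not protein-coding. Kcnq1ot1, a long antisense RNA within Kcnq1, averaged 20.7 CPM in +/+ somatodendritic and 44.3 CPM in +/+ axons, where 15.4, 98.4, 37.8 and 25.6 CPM were measured (log2 fold change 1.10, adjusted p = 0.0464 in edgeR). In Hnrnpr-/- motoneurons its log2 fold change was -0.24 (adjusted p = 0.668), and the difference between the genotypes did not pass (adjusted p = 1). The +/+ call rested on axonal replicate 2, the axonal library with the highest nuclear RNA sum (2468 CPM): without it the log2 fold change was 0.34 (adjusted p = 0.39), and with any +/+ somatodendritic library left out the adjusted p was 0.058 to 0.0951. Kcnq1 itself was below the filter. Kcnmb4os1 and Kcnmb4os2, which lie antisense to Kcnmb4, had log2 fold changes of 0.74 and 0.90 in +/+ axons (adjusted p = 0.131 and 0.0772), beside 1.10 for Kcnmb4. Kcnd3os, antisense to Kcnd3, had 0.18 (adjusted p = 0.771).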
